A study of Mus musculus with 6 samples.

Results

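The hard keratins of the hair shaft, the keratins of the inner root sheath and companion layer, and the keratin-associated proteins were described in mouse cheek skin. Members were the table rows for Krt25 to Krt28, Krt31, Krt32, Krt33a, Krt33b, Krt34 to Krt36, Krt71 to Krt75 and Krt81 to Krt86, and for every symbol beginning with Krtap, with a total of 10 or more estimated counts over the 6 libraries. This gave 67 of the 19309 genes in the table, 20 keratins and 47 keratin-associated proteins (KAPs). Krtap27-1, with a total of 13 counts, Krtap19-2 with 18.48 and Krtap5-1 with 35.89 lay just inside the threshold. Below it were Krtap19-1 with 7.04 counts, Krtap19-4 with 6, Krtap9-5 with 2, Krtap31-1 with 1 and Krtap31-2 with 0. Krt74 and Krt85 were not analysed here.

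The libraries came from 3 C57BL/6 mice of 6 to 8 weeks, with 1 library from each cheek. The right cheek was shaved and received a cotton sheet of acetone and ether in equal volumes for 30 s, followed by one of water for 30 s (AEW, which dries the skin), and the left cheek was wiped with distilled water for 60 s (vehicle). Tissue was taken after 12 days. The vehicle cheek therefore belongs to a treated animal, side of the face and treatment cannot be told apart, and the labels mention shaving for the right cheek alone. Library totals were between 18449145 and 19506462 estimated counts, and replicate numbers are mouse numbers, so that n is 3 animals in each group. The members took 0.0523% to 0.0923% of the counts in vehicle libraries, and 0.257%, 0.00717% and 0.104% in the AEW libraries of mice 1, 2 and 3.

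A hair is built in the bulb of a growing follicle, and these genes are known for being switched on there in concentric layers and in sequence as cells leave the dividing matrix. The inner root sheath is a rigid sleeve that moulds the shaft and is later broken down, and the companion layer joins it to the outer root sheath. In every layer an acidic type I keratin pairs with a basic type II keratin to form filaments, and in the shaft the KAPs embed and crosslink those filaments through disulphide bonds. Early shaft keratins such as Krt35 appear near the matrix, cortex keratins such as Krt31 and Krt86 higher up, and the KAPs late in cortex and cuticle. Follicles at rest make little of any of them.

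The promoters are shown because most members hold the letters TATAAA of a TATA box around their start. Whether promoter letters bear on the members' levels was not tested. RefSeq promoters of GRCm38.p6 were matched by symbol for 57 of the 67 members. The letters TATAAA, searched on both strands from 250 bases before to 50 after the start, were in 47 of these 57 (82.5%) and in 4472 of all 32841 promoters (13.6%). By group, 12 of 15 keratins and 35 of 42 KAPs held them. The core letters CTTTGA of sites for TCF/LEF factors were in 19 of 57 (33.3%) against 5255 of all promoters (16.0%). A match is a description of letters and not a measured binding site. The 250 bases before the start follow, 5′ to 3′ on the gene's strand, for the inner root sheath, type I shaft and type II shaft keratin of highest mean level with an entry. Krt71 lies at chr15:101743098-101743347, Krt33b at chr11:100029869-100030118 and Krt82 at chr15:101550660-101550909, each on the minus strand, and capitals mark TATAAA, which begins 40 bases before the start of Krt71 and 47 before that of Krt33b and is not in the window of Krt82.
Krt71: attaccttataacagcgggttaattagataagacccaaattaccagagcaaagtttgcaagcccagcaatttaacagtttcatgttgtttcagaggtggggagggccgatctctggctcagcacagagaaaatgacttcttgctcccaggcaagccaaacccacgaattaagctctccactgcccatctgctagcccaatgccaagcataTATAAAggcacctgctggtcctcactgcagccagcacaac
Krt33b: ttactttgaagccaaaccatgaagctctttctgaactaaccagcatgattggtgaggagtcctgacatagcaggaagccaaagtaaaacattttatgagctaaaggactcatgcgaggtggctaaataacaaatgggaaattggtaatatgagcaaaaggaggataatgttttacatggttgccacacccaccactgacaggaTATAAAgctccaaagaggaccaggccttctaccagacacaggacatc
Krt82: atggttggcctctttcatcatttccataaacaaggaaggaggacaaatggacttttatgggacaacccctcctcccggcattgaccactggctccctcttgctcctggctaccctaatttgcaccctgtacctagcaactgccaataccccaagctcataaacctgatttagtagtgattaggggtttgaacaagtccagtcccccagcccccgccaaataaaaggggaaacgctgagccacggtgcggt

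KAPs are put in classes by the residues they are rich in, and codons of the coding sequence were counted for this. From GENCODE M21 coding sequences, 14 KAPs were put in the high glycine-tyrosine class (glycine and tyrosine codons at least 35%). A further 16 went in the ultra-high sulphur class (cysteine codons over 30%). The high sulphur class took the remaining 17, with no lower limit on cysteine. Krtap28-13, Krtap5-2 and Krtap5-3 passed both limits and were counted as high glycine-tyrosine. Krtap7-1, with 29.9% glycine and tyrosine codons and 9.2% cysteine, fell in the high sulphur class, as did Krtap15 with 24.0% and 4.0%. The first 90 bases of the most abundant KAP of each class are given next. Capitals mark glycine and tyrosine codons in Krtap8-1 (14 of 30 codons) and cysteine codons in Krtap17-1 (12 of 30) and Krtap7-1 (3 of 30).
Krtap8-1: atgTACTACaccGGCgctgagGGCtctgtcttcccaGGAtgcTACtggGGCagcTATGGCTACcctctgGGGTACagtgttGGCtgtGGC
Krtap17-1: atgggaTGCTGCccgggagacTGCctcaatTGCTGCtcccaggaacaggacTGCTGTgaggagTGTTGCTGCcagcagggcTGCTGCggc
Krtap7-1: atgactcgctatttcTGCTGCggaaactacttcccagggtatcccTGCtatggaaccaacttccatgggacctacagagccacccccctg

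Near-identical copies limit single values in these families. Of all 50-base windows, the read length, 43.5% of those in Krt81 and 43.3% in Krt86 also occur in other genes, chiefly each other, and 81.3% of those in Krtap4-13 occur elsewhere among transcripts. Such windows made up over 10% of the sequence in 29 of the 67 members and 0% in 19. Estimated counts can divide such reads between copies.

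For most members no difference between AEW and vehicle skin passed the test, and the AEW libraries differed widely from one another. In the edgeR quasi-likelihood test, 52 members passed the filter on low counts, all 20 keratins and 32 KAPs. Of these, 1 was higher in AEW skin (Krt84) and 0 were lower at an adjusted p under 0.05, while over all 15109 tested genes the calls made up 4.85% in the higher and 6.8% in the lower direction. At an unadjusted p under 0.05 there were 2 members, Krt84 and Krtap3-2, or 3.85% of those tested, against 30.8% of all tested genes. With a replicate block by mouse the counts were again 1 and 0, where 1.99% of all genes were higher and 3.89% lower, and limma on log2 TPM gave 1 and 0 beside 4.59% and 4.47%. DESeq2 gave 1 higher and 1 lower, the latter Krtap3-2, beside 9.01% and 10% of all genes, and upper-quartile factors gave the same pair beside 4.05% and 8.58%. The median log2 fold change was -0.03 over tested members and 0.014 over all tested genes, and for members -0.70 in the block fit and -0.37 in limma on log2 TPM.

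The members' levels were spread widely between AEW libraries. The median SD of log2(CPM + 0.5), where CPM is counts per 1000000 of the TMM-scaled library total, was 0.87 in vehicle and 2.06 in AEW libraries for tested members. Over all tested genes it was 0.13 and 0.18. The SD was larger in AEW libraries for 50 of the 52 tested members and for 62.9% of all genes. In the inner root sheath keratins the median SD went from 0.29 in vehicle to 3.25 in AEW libraries, in shaft keratins from 0.64 to 2.52, and in the 32 tested KAPs from 1.17 to 1.92. Over all 47 KAPs, tested or not, it went only from 1.38 to 1.51. In the 14 high glycine-tyrosine KAPs it fell from 1.43 to 0. Of those 14, 8, 11 and 8 were at 0 counts in AEW mice 1, 2 and 3.

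One library, AEW mouse 2, was low for nearly every member. It held the lowest value alone for 49 of the 67 members, and 30 were at 0 counts there. Among all tested genes, 18.3% were lowest in that library. The highest value lay in AEW mouse 1 for 12 members, all of them keratins, in vehicle mouse 2 for 30 (7 shaft keratins and 23 KAPs), in AEW mouse 3 for 24, all KAPs, and in AEW mouse 2 for Krt84 alone. The ratio of AEW to vehicle CPM was under 0.1 in mouse 2 for 54 of 67 members. In mouse 3 it was over 2 for 37 of the 53 members detected in the vehicle cheek, and in mouse 1 for 10 of 66. In bulk tissue, fewer cells of a type and less RNA per cell cannot be told apart.

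**Figure D1:**
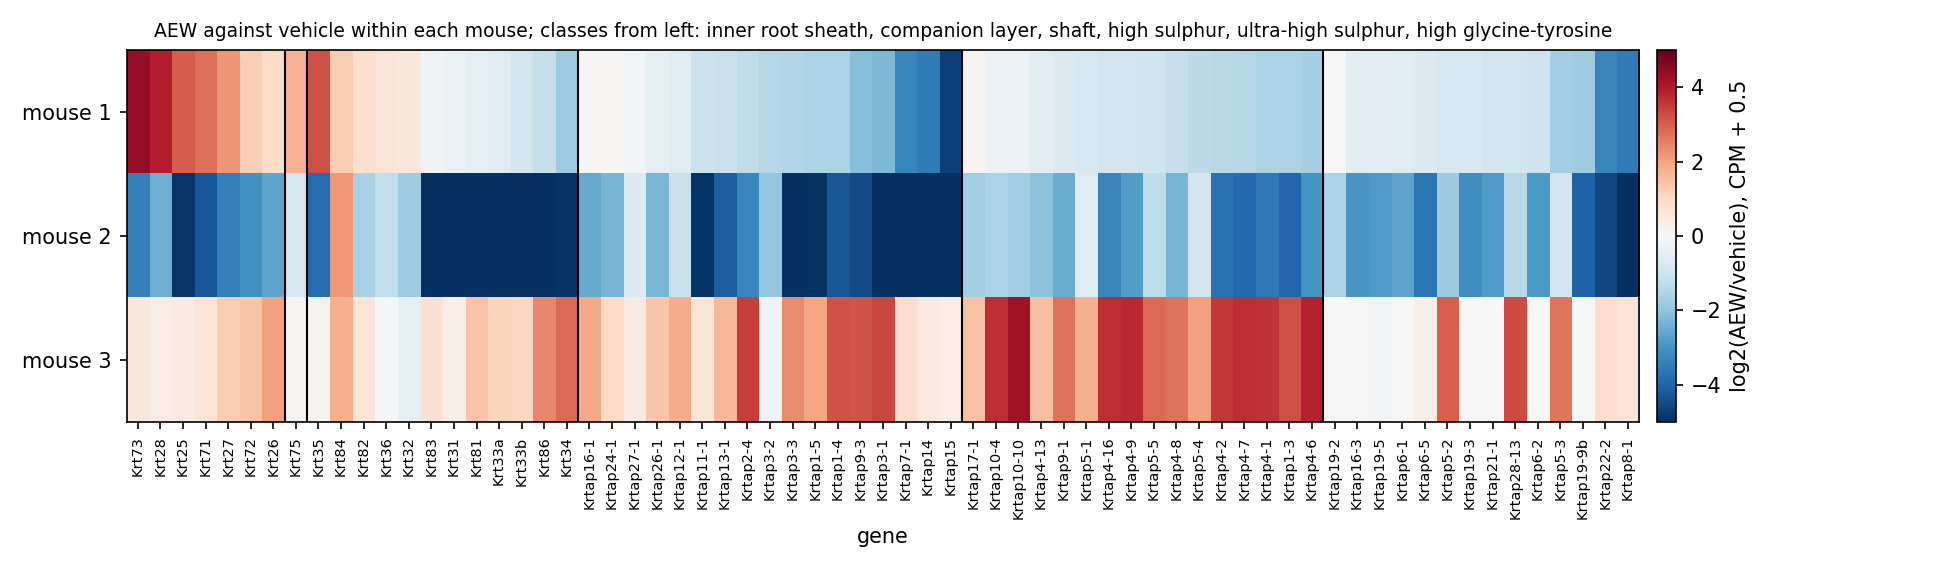
Colour gives log2 of AEW over vehicle CPM, with 0.5 added to both, for each of the 67 members (columns, by class) in each mouse (rows); values beyond the ends of the scale take the end colour. Mouse 2 is blue for every member but Krt84, mouse 1 is red for the 7 inner root sheath keratins and mostly blue for KAPs, and mouse 3 is mostly red.

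The 7 inner root sheath keratins varied together, from far above to far below the vehicle cheeks. Their summed TPM, a level per transcript length that can be compared between genes, was 217, 205 and 239 in vehicle mice 1, 2 and 3, and 1830, 10.7 and 421 in AEW mice 1, 2 and 3. The vehicle values lay close together and within the AEW range. All 7 were higher on the AEW side in mice 1 and 3 and lower in mouse 2, with median log2 ratios of 2.76, -3.41 and 0.70 in mice 1, 2 and 3. None of the 7 passed the edgeR test, 0 had an unadjusted p under 0.05, and DESeq2 and limma also called 0.

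Krt71, the main type II keratin of all 3 sheath layers, stood at 118, 109 and 136 CPM in vehicle mice 1 to 3 and at 800, 5.30 and 221 in AEW mice 1 to 3. Its type I partner Krt25 gave 71.5, 68.5 and 86.6 CPM in vehicle and 578, 1.89 and 118 in AEW skin. For both genes mice 1 and 3 were above every vehicle library and mouse 2 below, so the groups overlapped. Log2 fold changes were 1.5 ± 1.22 for Krt71 and 1.62 ± 1.32 for Krt25 (SE, adjusted p = 0.446 for each, edgeR). Krt27, a further type I partner, gave 41.6, 34.3 and 30.1 CPM in vehicle and 196, 2.78 and 73.6 in AEW skin (log2 fold change 1.36 ± 1.06, adjusted p = 0.423). It shares 11.1% of its windows with other genes, chiefly Krt25.

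In mouse 1 the highest ratio in the sheath belonged to Krt73, a type II keratin of the sheath cuticle. Its CPM was 12.7, 12.2 and 18.2 in vehicle mice 1 to 3 and 274, 0.689 and 27.3 in AEW mice 1 to 3, a ratio of 21.6 in mouse 1 and 0.0565 in mouse 2. Its fitted log2 fold change of 2.81 ± 1.45 (adjusted p = 0.237) did not pass, and it was 0.77 in the block fit, 0.62 in limma on log2 TPM and -0.05 without AEW mouse 1. Krt28, a type I keratin of the sheath, gave 10.5, 9.43 and 14.1 CPM in vehicle and 164, 1.33 and 18.2 in AEW skin (2.44 ± 1.29, adjusted p = 0.247). Krt26 and Krt72, both keratins of the sheath cuticle, were scarcer. Krt26 gave 3.22, 2.92 and 0.945 CPM in vehicle and 6.51, 0.0525 and 5.48 in AEW skin, the AEW value of mouse 2 lying below the level of 3 counts (0.157 CPM). Krt72 gave 5.41, 5.46 and 2.61 against 13.3, 0.225 and 7.86 CPM. The AEW to vehicle ratio of these 2 was larger in mouse 3 than in mouse 1, at 5.80 against 2.02 for Krt26 and 3.01 against 2.47 for Krt72, whereas the other 5 had the larger ratio in mouse 1. The direction of Krt25, Krt71 and Krt72 differed between fits: in limma on log2(TPM + 0.5) their differences were -0.35, -0.19 and -0.025. The block fit brought all 7 closer to 0, to between 0.06 (Krt25) and 0.77 (Krt73).

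Type I and type II sheath keratins stayed in balance in every library although their level differed widely between libraries. The ratio of type I to type II summed TPM was 1.13, 1.1 and 1.01 in vehicle mice 1 to 3 and 1.06, 1.31 and 1.03 in AEW mice 1 to 3. Krt75, the type II keratin of the companion layer, varied less than the sheath keratins. Its CPM was 49.9, 70.2 and 71.6 in vehicle and 166, 39.0 and 75.4 in AEW skin (0.55 ± 0.47, adjusted p = 0.470), so that the AEW cheek of mouse 2 held 0.555 of the vehicle level.

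**Figure D2:**
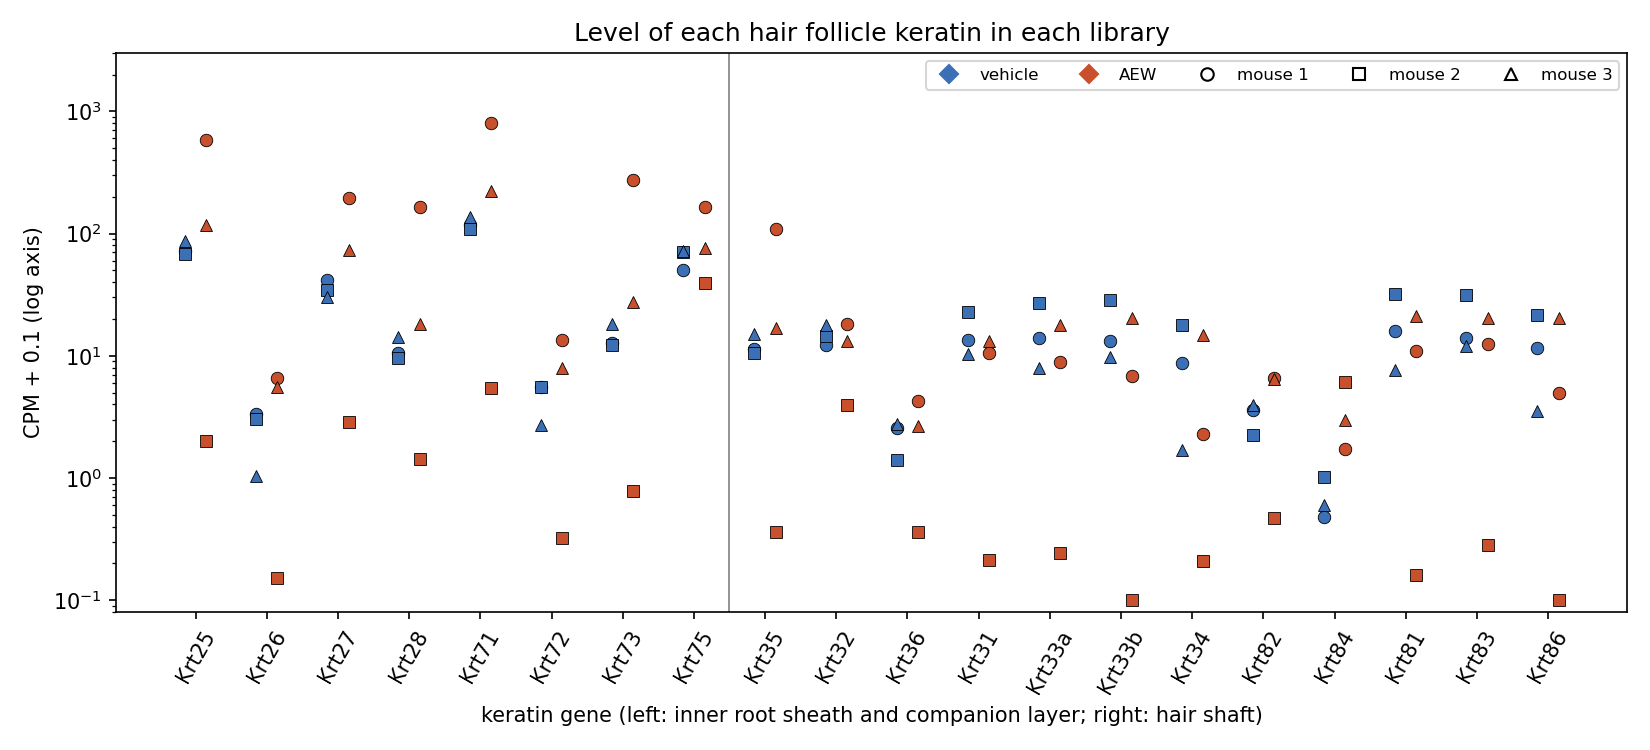
Each point is 1 library's CPM plus 0.1 on a log axis for 1 keratin, with colour for treatment and shape for mouse. AEW mouse 1 tops the sheath keratins (Krt71 at 800 CPM), AEW mouse 2 is lowest for 19 of 20 keratins, and Krt84 alone has all 3 AEW points above all 3 vehicle points.

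The 12 shaft keratins did not all peak in the same library: 4 were highest in AEW mouse 1, 7 in vehicle mouse 2 and Krt84 in AEW mouse 2. Their summed TPM was 113, 205 and 88.4 in vehicle mice 1 to 3 and 200, 8.71 and 171 in AEW mice 1 to 3, overlapping ranges with AEW mouse 2 far below. Krt35, made in the matrix and early shaft, gave 11.2, 10.4 and 15.1 CPM in vehicle and 108, 0.263 and 16.9 in AEW skin. Its ratio of 9.67 in mouse 1 was the largest among shaft keratins there (log2 fold change 1.77 ± 1.28, adjusted p = 0.390; -0.08 in limma on log2 TPM). Krt32, Krt36 and Krt82 were also highest in AEW mouse 1, by smaller margins. Krt32, a type I cuticle keratin, gave 12.2, 14.4 and 17.8 CPM in vehicle and 18.1, 3.83 and 13 in AEW skin (-0.35 ± 0.48, adjusted p = 0.665). Krt82, the type II cuticle keratin, gave 3.49, 2.16 and 3.84 against 6.44, 0.368 and 6.31 CPM (0.47 ± 0.80, adjusted p = 0.730), and Krt36, a scarce type I keratin, gave 2.48, 1.31 and 2.68 against 4.18, 0.263 and 2.57 CPM (0.13 ± 0.77, adjusted p = 0.925). The sign of these last 2 turned in the fit with the mouse as a block, to -0.0369 for Krt82 and -0.30 for Krt36. In all 4 genes the vehicle values lay inside the AEW range.

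The other 7, all known from the cortex, were highest in vehicle mouse 2 and nearly absent from the AEW cheek of that same animal. Krt31 gave 13.3, 22.6 and 10.3 CPM in vehicle mice 1 to 3 and 10.5, 0.112 and 13 in AEW mice 1 to 3 (-0.97 ± 0.96, adjusted p = 0.535). Krt33b gave 13.1, 28.7 and 9.70 CPM in vehicle and 6.75, 0 and 20.4 in AEW skin (-0.92 ± 1.12, adjusted p = 0.613). Krt33a gave 14, 26.7 and 7.85 against 8.73, 0.145 and 17.6 CPM. For these type I cortex keratins AEW mice 1 and 3 fell inside or near the vehicle range, and without mouse 2 the log2 fold changes of Krt33a and Krt33b were 0.27 and 0.25. Krt34, a type I keratin of the upper cortex, gave 8.67, 17.9 and 1.59 CPM in vehicle and 2.21, 0.110 and 14.6 in AEW skin (-0.74 ± 1.25, adjusted p = 0.726). Its within-mouse ratios, 0.255, 0.00615 and 9.16 in mice 1 to 3, pointed in different directions in mice 1 and 3.

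Their type II partners were likewise highest in vehicle mouse 2 and lowest in AEW mouse 2. Krt81 gave 15.7, 31.8 and 7.56 CPM in vehicle and 10.9, 0.0599 and 21.0 in AEW skin (-0.78 ± 1.09, adjusted p = 0.666). Krt86 gave 11.5, 21.4 and 3.41 against 4.82, 0 and 20.1 CPM (-0.54 ± 1.23, adjusted p = 0.799), and Krt83 gave 14, 31.2 and 11.9 against 12.3, 0.181 and 20.3 CPM (-0.80 ± 1.01, adjusted p = 0.628). All 3 ran in the same order, with AEW mouse 3 second and vehicle mouse 1 next. Krt81 and Krt86 share many windows, so their separate values are uncertain.

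In AEW mouse 1 the sheath keratins and Krt35 stood high relative to Krt31, the shaft keratins as a whole and the KAPs. The ratio of Krt35 to Krt31 in TPM was 0.771, 0.421 and 1.34 in vehicle mice 1 to 3 and 9.48, 2.08 and 1.19 in AEW mice 1 to 3. The ratio of inner root sheath to shaft keratins was 1.92, 1.00 and 2.71 in vehicle and 9.14, 1.23 and 2.47 in AEW libraries. KAPs over shaft keratins gave 4.25, 4.64 and 2.14 in vehicle and 0.611, 2.07 and 4.04 in AEW libraries. AEW mouse 1 thus held the highest value of the first pair of ratios and the lowest of the last, while AEW mouse 3 lay within the vehicle range for all 3. The shaft type I to type II ratio was 1.88, 1.59 and 2.65 in vehicle and 4.90, 1.05 and 1.59 in AEW libraries, again highest in AEW mouse 1. There Krt35 alone gave 112 of the 166 TPM of type I shaft keratins, so this ratio largely repeats the Krt35 value. The type II sum lacks Krt85.

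**Figure D3:**
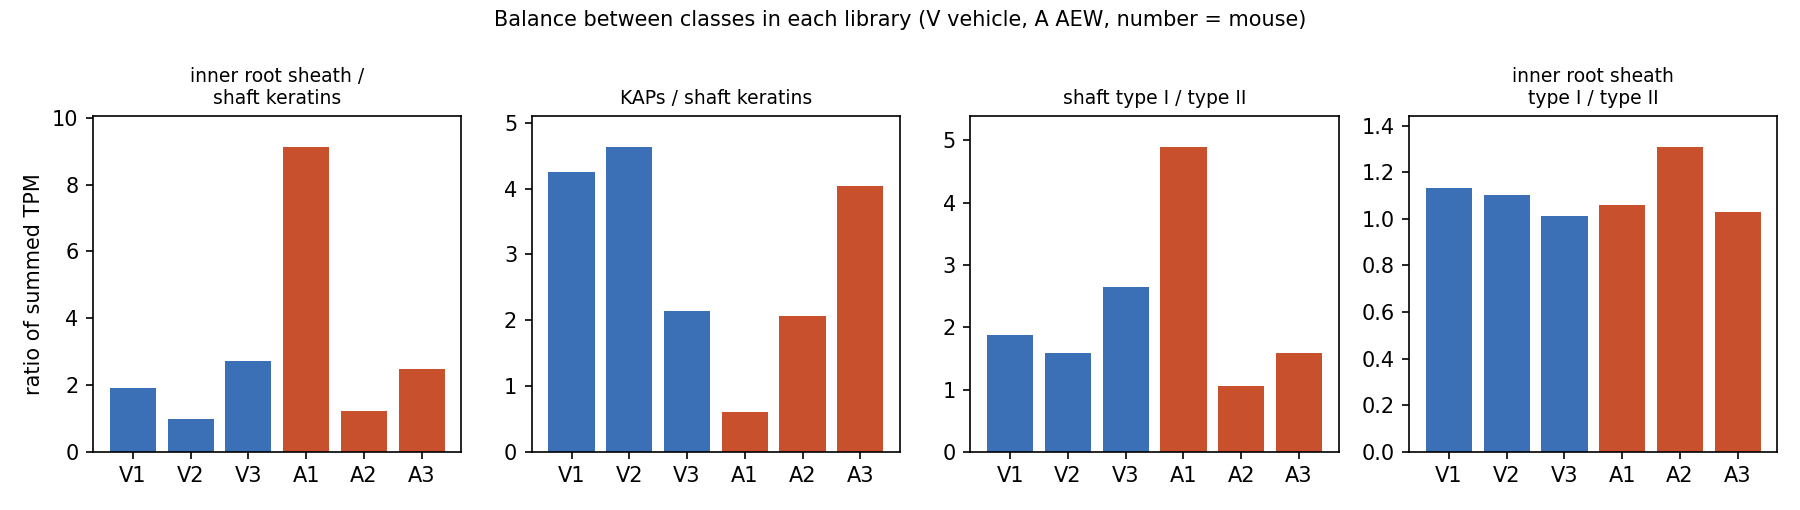
Bars give ratios of summed TPM in each library (V vehicle, A AEW, with the mouse number); each panel has its own linear axis from 0. AEW mouse 1 stands at 9.14 for sheath over shaft keratins and 0.611 for KAPs over shaft keratins, while the sheath type I to type II ratio stays between 1.01 and 1.31.

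Krt84 was the exception. It encodes a type II hair keratin whose human counterpart is known from the filiform papillae of the tongue. Estimated counts were 7, 17 and 9 in vehicle mice 1 to 3 and 32.93, 113.26 and 56.01 in AEW mice 1 to 3, or 0.382, 0.918 and 0.5 against 1.64, 5.95 and 2.90 CPM. Every AEW library was above every vehicle library, and AEW mouse 2, lowest for the other keratins, was highest here. Among all tested genes 17.4% had all 3 AEW libraries above all 3 vehicle libraries. The means were 0.600 ± 0.282 and 3.49 ± 2.22 CPM (SD, n = 3 each), and the ratio within mice was 4.28, 6.48 and 5.79. The log2 fold change was 2.52 ± 0.57 (SE, 95% interval 1.19 to 3.86, adjusted p = 0.0361, edgeR). It passed in all 5 other full fits, at an adjusted p of 0.022 in the block fit, 0.0349 under upper-quartile factors, 0.0349 without the filter (where 3.51% of all genes were higher), 0.000571 in DESeq2 and 0.0405 in limma on log2 TPM. The call was lost without vehicle mouse 1 (adjusted p = 0.125), vehicle mouse 2 (0.0542), vehicle mouse 3 (0.153), AEW mouse 2 (0.0751) or AEW mouse 3 (0.0666), and kept without AEW mouse 1 (0.014, where 7.83% of all genes were higher). Over all genes, the fits that lost it called 33, 376, 23, 175 and 346 higher, against 733 in the main fit. Leaving out a whole mouse kept the call without mouse 1 (0.034) and lost it without mouse 2 (0.0864) or 3 (0.239). Those fits called 1064, 14 and 0 genes higher. None of the 50-base windows of Krt84 occurs in another gene.

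Of the interfollicular epidermal markers, most but not all had the direction of Krt84. Of 8 tested (Krt5, Krt14, Krt1, Krt10, Krt2, Lor, Flg and Ivl), 5 were higher in AEW skin and 0 lower, beside 4.85% and 6.8% of all tested genes. The summed CPM of the 8 was 10700, 16100 and 13000 in vehicle mice 1 to 3 and 18900, 28800 and 24900 in AEW mice 1 to 3. Lor, the cornified envelope protein loricrin, was lower in the AEW cheek of all 3 mice without passing (-0.32 ± 0.18, adjusted p = 0.283), and Krt5 and Krt10 did not pass either. As for Krt84, the sum was highest in AEW mouse 2, and in vehicle mouse 2 among vehicle libraries. Their part in the Krt84 result was not tested.

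**Figure D4:**
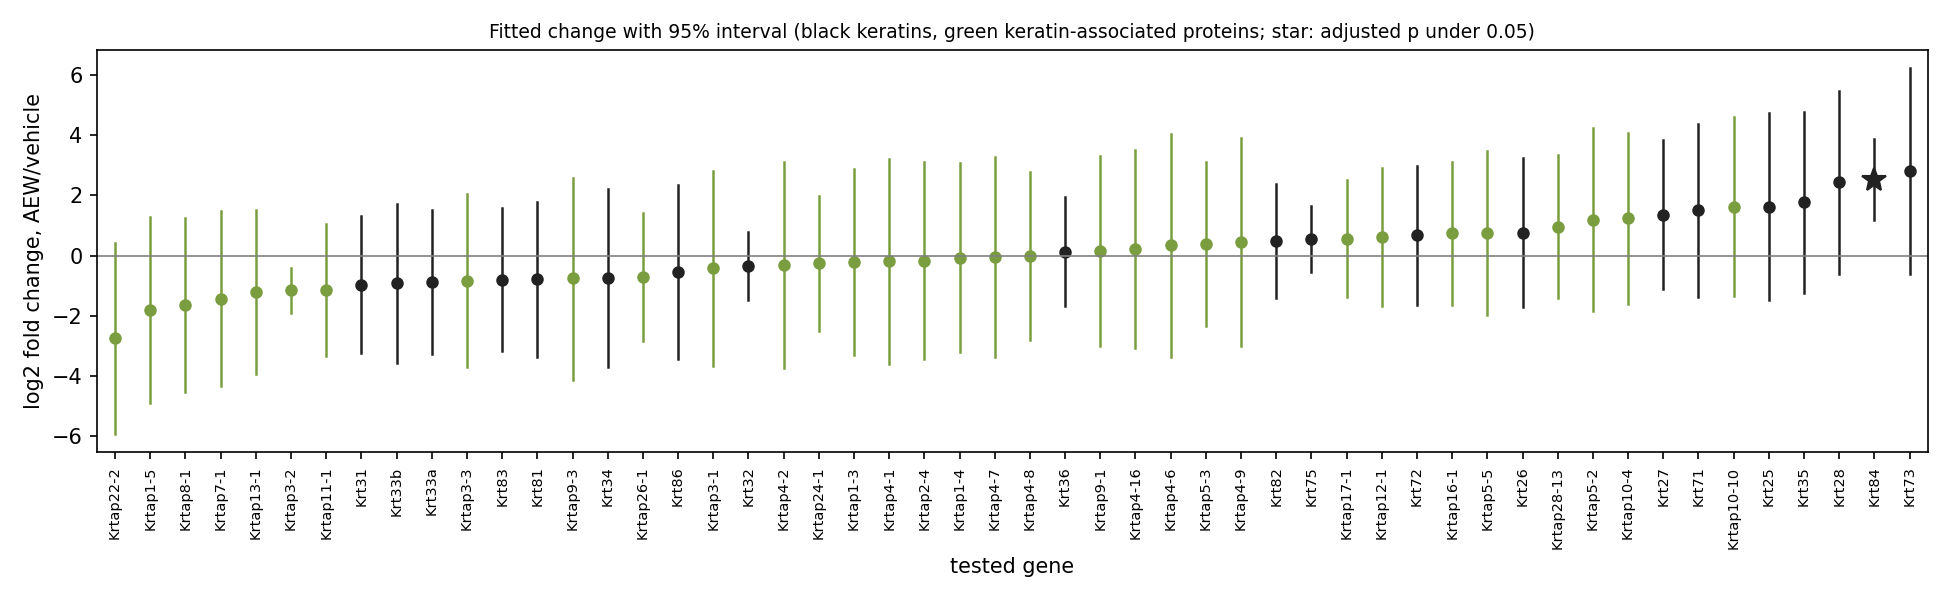
Points are fitted log2 fold changes of AEW over vehicle for the 52 tested members, with 95% intervals. Krt84 at 2.52 is the starred gene past the threshold; most other intervals span 0 widely, and Krtap3-2 at -1.16 has an interval below 0 with an adjusted p of 0.0556.

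Among the KAPs, 0 of 32 tested members were higher and 0 lower in the edgeR test, beside 4.85% and 6.8% of all tested genes. An unadjusted p under 0.05 was found for 1 of the 32, and for 30.8% of all tested genes. Summed TPM of the 47 was 480, 951 and 189 in vehicle mice 1 to 3 and 122, 18.0 and 689 in AEW mice 1 to 3. The AEW cheek was higher for 3 of 47 in mouse 1, for 0 in mouse 2 and for 38 in mouse 3. The vehicle cheeks also differed, since vehicle mouse 3 held 14 KAPs at 0 counts and vehicle mouse 2 held 0.

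The high glycine-tyrosine class, as built here by codons, was the scarcest KAP class in AEW mice 1 and 2. Such proteins are known as small proteins of the cortex matrix, but the class also holds Krtap5-2 (367 codons) and Krtap5-3 (356 codons). Summed TPM of the class was 117, 298 and 52.9 in vehicle mice 1 to 3 and 10.9, 1.51 and 127 in AEW mice 1 to 3. For the 11 members with cysteine codons at most 30% it was 105, 291 and 50.7 against 5.44, 0.16 and 91.0. Krtap8-1, the most abundant and the one whose coding start is printed above, gave 23.4, 41.7 and 14.7 CPM in vehicle and 1.54, 0.0525 and 23.9 in AEW skin. AEW mice 1 and 2 lay below all vehicle libraries and AEW mouse 3 within their range (-1.64 ± 1.22, adjusted p = 0.406). Krtap22-2 gave 4.97, 11.2 and 1.17 against 0.0497, 0 and 2.53 CPM, with the lowest fitted fold change of any tested member (-2.75 ± 1.35, adjusted p = 0.216). Krtap28-13, which is also rich in cysteine, behaved otherwise and was highest in AEW mouse 3, at 4.44, 2.57 and 0.836 CPM in vehicle and 2.09, 0.678 and 12.4 in AEW skin (0.96 ± 1.01, adjusted p = 0.559). The cysteine-rich Krtap5-2 (1.18 ± 1.29, adjusted p = 0.571, edgeR) and Krtap5-3 (0.37 ± 1.16, adjusted p = 0.856) were likewise highest in AEW mouse 3. Of the 5 tested members of the class, 3 thus had a log2 fold change above 0.

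A set of 8 high glycine-tyrosine KAPs (Krtap16-3, Krtap19-2, Krtap19-3, Krtap19-5, Krtap19-9b, Krtap21-1, Krtap6-1 and Krtap6-2) had 0 counts in all 3 AEW libraries. They were singled out after their values were seen. Krtap19-9b gave 22, 142.95 and 0 counts in vehicle mice 1 to 3, and Krtap19-5 gave 4, 56 and 1. Most of their counts lay in vehicle mouse 2. Vehicle mouse 3 also had 0 counts for all of them but Krtap19-5. The set met the total of 10 counts through vehicle libraries alone, so its lower level in AEW skin was fixed by the choice. None of the 8 passed the filter on low counts. In the fit without that filter their adjusted p ran from 0.112 to 0.258. Krtap19-5 and Krtap3-2 were the members with all 3 AEW libraries below all 3 vehicle libraries, which 19.5% of all tested genes also showed.

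Ultra-high sulphur KAPs, whose cysteines form disulphide crosslinks, were highest in AEW mouse 3 for 15 of 16 members. Their summed TPM was 70.5, 97.8 and 11.5 in vehicle mice 1 to 3 and 36.4, 2.01 and 196 in AEW mice 1 to 3, so that mouse 3 held both the lowest vehicle and the highest AEW value. All 16 were higher in the AEW cheek of mouse 3, by a median log2 ratio of 3.37, against -0.98 in mouse 1 and -2.42 in mouse 2. Krtap10-4, of a family known from the hair cuticle, gave 2.89, 1.55 and 0.190 CPM in vehicle and 2.29, 0.183 and 8.49 in AEW skin (1.23 ± 1.2, adjusted p = 0.525). Krtap4-7 gave 3.79, 6.84 and 0.261 against 1.09, 0 and 9.47 CPM (-0.05 ± 1.41, adjusted p = 0.985), and Krtap1-3 gave 4.46, 8.04 and 0.652 against 1.13, 0.0525 and 10.2 CPM (-0.22 ± 1.30, adjusted p = 0.928). Both had fold changes near 0, with a higher AEW value in mouse 3 and lower ones in mice 1 and 2. Krtap17-1 gave 4.75, 2.70 and 3.34 against 5.22, 0.473 and 10.2 CPM (0.56 ± 0.82, adjusted p = 0.685) and kept the steadiest vehicle level of the 4 named, with a sign that turned in the block fit (-0.0318) and in limma on log2 TPM (-0.07).

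Of the KAP classes, the high sulphur class, which took every KAP outside the other limits, had the highest summed level. Its summed TPM was 293, 555 and 125 in vehicle mice 1 to 3 and 74.6, 14.5 and 366 in AEW mice 1 to 3, overlapping between groups. Krtap7-1 gave 27.1, 49.6 and 17.5 CPM in vehicle and 2.39, 0.0525 and 32.5 in AEW skin (-1.43 ± 1.23, adjusted p = 0.470), the same order of libraries as Krtap8-1. Krtap3-1 gave 11.8, 17.6 and 1.64 against 2.13, 0 and 21.1 CPM (-0.42 ± 1.37, adjusted p = 0.863). Krtap3-3 gave 13.9, 21.2 and 2.83 against 4.67, 0 and 16.6 CPM (-0.83 ± 1.22, adjusted p = 0.683). In both, AEW mouse 3 was above its vehicle cheek and AEW mice 1 and 2 below theirs.

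Krtap3-2, of the same family, was lower in the AEW cheek of all 3 mice. Its CPM was 29.9, 31.9 and 22.1 in vehicle mice 1 to 3 and 10.7, 7.98 and 18.9 in AEW mice 1 to 3, with no overlap. The means were 27.9 ± 5.16 and 12.5 ± 5.67 CPM (SD, n = 3 each) and the ratios within mice 0.358, 0.250 and 0.854. The log2 fold change was -1.16 ± 0.31 (unadjusted p = 0.00736, edgeR), and at an adjusted p of 0.0556 it did not pass. It passed in DESeq2 (0.00314), with upper-quartile factors (0.0498) and without AEW mouse 3 (0.0258, where 4.28% were lower), and not with the mouse as a block (0.121). It shares 28.9% of its windows with other genes, chiefly Krtap3-3. Unlike Krtap3-1 and Krtap3-3, it kept 7.98 CPM in AEW mouse 2, where they had 0.

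Leaving out AEW mouse 3 also brought Krtap8-1 (adjusted p = 0.0397), Krtap22-2 (0.0489) and Krtap7-1 (0.0492) past the threshold as lower. Krtap14 and Krtap15, high sulphur KAPs chosen here after their values were seen, were called lower without vehicle mouse 3, where 0.765% of all genes were. Krtap14 had 96, 370 and 0 counts in vehicle mice 1 to 3 and 0, 1 and 4 in AEW mice 1 to 3. Krtap15 had 225, 647 and 0 against 0, 1 and 3, so that mouse 3 had almost none on either side. Without the low-count filter on all 6 libraries their adjusted p was 0.0665 and 0.051.

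The library in which a KAP peaked differed between gene clusters, but cluster and class overlap and their parts were not separated. In RefSeq's GRCm38.p6 annotation, 19 KAPs lie on chromosome 16 and 18 of these were highest in vehicle mouse 2. Of the 19, 8 were at 0 in AEW mouse 3, and these are the high glycine-tyrosine KAPs named above for 0 counts in every AEW library. Of 19 on chromosome 11, 14 were highest in AEW mouse 3 and 5 in vehicle mouse 2. The 5 on chromosome 7, 3 on chromosome 10 and 1 on chromosome 1 were all highest in AEW mouse 3. Of the 20 keratins, 11 lie on chromosome 11 with the type I cluster and 9 on chromosome 15 with the type II cluster.

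**Figure D5:**
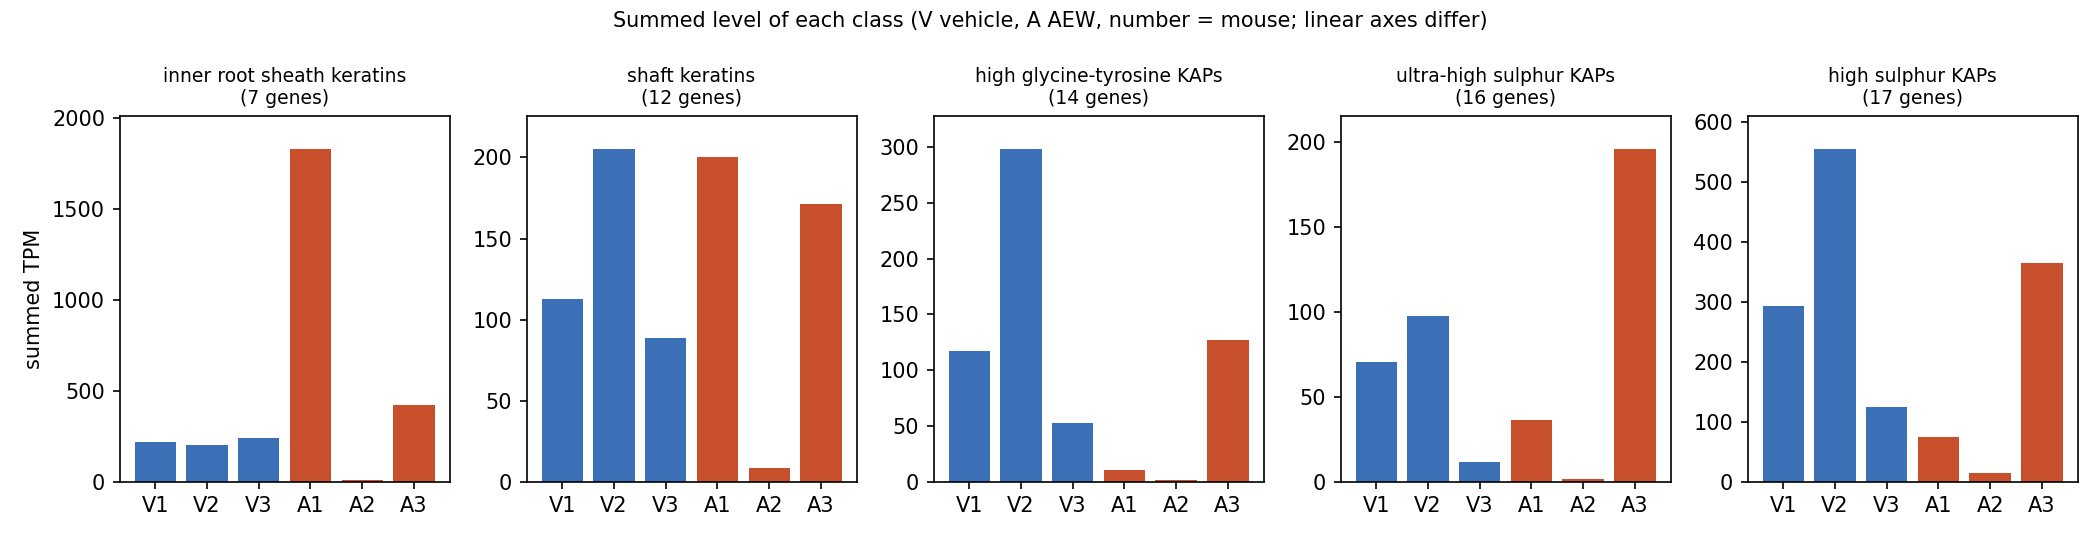
Bars give summed TPM of each class in each library, with linear axes from 0 that differ between panels. The sheath keratins reach 1830 TPM in AEW mouse 1, the high glycine-tyrosine and high sulphur KAPs peak in vehicle mouse 2 at 298 and 555, the ultra-high sulphur KAPs peak in AEW mouse 3 at 196, and AEW mouse 2 is lowest in every panel.

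Other structural genes of shaft and sheath followed the members in part. Of 12 listed and tested, 2 were higher in AEW skin and 0 lower, beside 4.85% and 6.8% of all tested genes. In AEW mouse 2, 7 of the 12 were lowest, beside 18.3% of all tested genes. Tchh, which encodes the trichohyalin that hardens the inner root sheath, followed the sheath keratins at 96.0, 80.2 and 92.2 CPM in vehicle mice 1 to 3 and 282, 13 and 174 in AEW mice 1 to 3 (0.81 ± 0.84, adjusted p = 0.553). Tgm3, a transglutaminase of both follicle and epidermis, did not, at 10.1, 15.2 and 8.24 against 36.1, 59.2 and 39.0 CPM. It rose by a log2 fold change of 2.00 ± 0.28 (adjusted p = 0.0123), lost without vehicle mouse 1 (0.0597) or vehicle mouse 3 (0.0584). The other call was Psors1c2 (1.44 ± 0.30, adjusted p = 0.031), lost without vehicle mouse 1 (0.113), 2 (0.0611) or 3 (0.129) or AEW mouse 2 (0.0687). Padi1, which modifies arginines in trichohyalin and other proteins, missed the threshold (1.66 ± 0.43, adjusted p = 0.051) and passed in the block fit (0.046), in DESeq2 (0.0038) and without mouse 1 (0.0481).

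Of 17 tested regulators of the hair matrix, 2 were higher and 0 lower, beside 4.85% and 6.8% of all tested genes. Among the 18 listed, 14 were highest in AEW mouse 1 and 10 were lowest in AEW mouse 2. Hoxc13, a homeobox factor needed for hair keratin genes, gave 5.84, 7.08 and 7.11 CPM in vehicle mice 1 to 3 and 37.8, 4.04 and 11 in AEW mice 1 to 3. Shh, a signal of growing follicles, gave 0.382, 0.324 and 1.17 against 25.7, 0.473 and 2.07 CPM. In AEW mouse 2, where most members were close to 0, Hoxc13 was below every vehicle library, at 0.571 of its vehicle cheek. Shh was within the vehicle range there, at only 9 counts. Tchh, Hoxc13 and Shh were chosen after their values were seen. The regulators that rose were Foxn1, the factor lost in nude mice (0.88 ± 0.16, adjusted p = 0.0203), and Ovol1, a zinc finger factor of epidermis and follicle (1.1 ± 0.19, adjusted p = 0.0206). The call of Foxn1 was lost without vehicle mouse 1 (0.076), 2 (0.050) or 3 (0.0809) or AEW mouse 3 (0.0531), and that of Ovol1 without vehicle mouse 1 (0.069) or 3 (0.102) or AEW mouse 2 (0.0585) or 3 (0.0505). Bmp4, a ligand active in the follicle, stood at -0.67 (adjusted p = 0.101) and passed as lower in DESeq2 (0.0433) and without AEW mouse 1 (0.0195).

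Some markers of other cell types were also highest in AEW mouse 1, and others were not. Among all tested genes 26.5% were highest in that library, and 4.85% were called higher and 6.8% lower in AEW skin. Melanocyte markers, which in growing follicles mark the pigment cells of the bulb, summed to 48.1, 45.7 and 54.1 CPM in vehicle mice 1 to 3 and 263, 62.0 and 67.7 in AEW mice 1 to 3, with 7 of 8 highest in AEW mouse 1 and 1 (Oca2) at 0 in vehicle mouse 2. All 8 markers of dividing cells were highest in AEW mouse 1, at a sum of 878 CPM against 416 and 406 in AEW mice 2 and 3 and 171 to 256 in vehicle, and 6 were higher in AEW skin. Dermal papilla markers summed to 363 CPM in AEW mouse 1 and 150 to 188 elsewhere. Outer root sheath and bulge markers summed to 3510 to 4520 CPM in vehicle and 4160, 3410 and 3830 in AEW mice 1 to 3, and AEW mouse 2, with most members close to 0, was just under the vehicle range. That sum joins markers that moved in different directions. Of the 10, 1 was higher in AEW skin (Krt17, 0.69 ± 0.13, adjusted p = 0.0235, edgeR) and 1 lower (Cd34, -0.62 ± 0.15, adjusted p = 0.0467). Skeletal muscle markers were lower in AEW skin for 9 of 10, with sums of 25900 to 37600 CPM in vehicle and 10700 to 14800 in AEW libraries. Immune markers summed to 1410, 772 and 675 CPM in vehicle mice 1 to 3 and 669, 1260 and 927 in AEW mice 1 to 3. Fibroblast markers summed to 6710 to 8870 in vehicle and 12300, 8240 and 7020 in AEW mice 1 to 3. Of the 6, 4 were highest in AEW mouse 1, whereas Dcn was lowest there, at 1820 CPM against 4040 in its vehicle cheek. The call among them was Pdgfra, higher in AEW skin (0.51 ± 0.11, adjusted p = 0.0352, edgeR). Sebaceous markers summed to 8540 to 12700 in vehicle and 7580 to 8250 in AEW libraries. Most of that sum was Scd1, at 6370 to 8970 CPM in vehicle and 5000 to 5500 in AEW libraries. Of the 8 sebaceous markers, 1 was higher in AEW skin (Elovl3, 1.13 ± 0.21, adjusted p = 0.0221, edgeR) and 1 lower (Mgst1, -0.46 ± 0.10, adjusted p = 0.0323). The part of these cell types in the members' values was not tested.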

How the data were processed

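RNA of 6 cheek skin libraries was poly(A)-selected and read as single 50-base ends, per the labels' protocols. The authors deposited estimated counts and TPM per gene, per the file headers. HISAT and GRCm39 are named in the submitters' processing notes, while counter, annotation and strandedness were not given in the sources used here and antisense neighbours cannot be told apart. The deposited FPKM values and group means were not used.

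Estimated counts were rounded and tested with edgeR 4.0.16 (R 4.3.3, quasi-likelihood, group as the only term, TMM factors 0.973 to 1.05, filterByExpr at a minimum count of 10) over 15109 genes, with Benjamini-Hochberg adjustment over all of them at 0.05. Alternatives were the mouse as a replicate block, upper-quartile factors, no filter, DESeq2 1.42.0, limma 3.58.1 on log2(TPM + 0.5), and leaving out each library or mouse. The test was tried on simulated counts. Both cheeks of a mouse share its number, so numbers pair libraries by animal. Deviations from group means correlated at -0.244, -0.165 and -0.246 within mice, and at 0.0496 to 0.181 between mice. Libraries of a group differed beyond sampling noise (a chi-square of at least 19.07 per degree of freedom).

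KAP classes were to come from RefSeq proteins. The same limits were applied to codons of GENCODE M21 coding sequences instead. Named genes are every keratin, every KAP past the threshold, the 4 KAPs of highest mean TPM in each class, and in each list of other follicle genes those past the threshold and the 3 of smallest p. Members and lists were chosen with earlier results of these data known.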

Additional observations from a re-analysis of the deposited data

How the results depend on the processing

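Of the members, Krt84 was called in all 6 fits on the full set of libraries, among them the fit with the mouse as a replicate block. Members called lower, all KAPs, numbered 0 in the main fit and 1 each with upper-quartile factors and in DESeq2. Over all genes, those higher numbered 733 in the main fit, 300 with the replicate block and 1362 in DESeq2, and those lower 1027, 588 with the replicate block and 676 in limma on log2 TPM. Leaving out 1 library or 1 mouse gave 0 to 1 members higher and 0 to 4 lower (keratins 0 to 1 higher, KAPs 0 to 4 lower), 0 to 1197 genes higher and 0 to 1041 lower, and a median log2 fold change of tested members of -2.25 to 1.05.

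Signs turned without passing a threshold for Krt25 (-0.35), Krt71 (-0.19), Krt72 (-0.025), Krt35 (-0.08), Krt36 (-0.12) and Krtap17-1 (-0.07) in limma on log2 TPM, and for Krt36 (-0.30), Krt82 (-0.0369) and Krtap17-1 (-0.0318) with the replicate block. The cause was not tested. The block changed no call of a member. Leaving out 1 library or 1 mouse turned the sign of the log2 fold change in at least 1 fit for 22 named genes, with ranges of -0.31 to 0.99 for Krt75, -0.37 to 2.21 for Krt25, -0.27 to 3.05 for Krt28, -0.12 to 2.08 for Krt71, -0.16 to 1.40 for Krt72, -0.12 to 3.46 for Krt73, -0.94 to 0.07 for Krt32, -2.19 to 0.27 for Krt33a, -2.62 to 0.25 for Krt33b, -3.52 to 0.70 for Krt34, -0.56 to 2.36 for Krt35, -0.59 to 0.66 for Krt36, -2.11 to 0.45 for Krt81, -1.85 to 0.33 for Krt83, -2.76 to 0.74 for Krt86, -1.32 to 1.95 for Krtap28-13, -0.38 to 1.09 for Krtap17-1, -3.36 to 1.13 for Krtap1-3, -3.25 to 1.37 for Krtap4-7, -0.86 to 2.30 for Krtap10-4, -3.76 to 0.77 for Krtap3-1, -2.89 to 0.35 for Krtap3-3.

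Precision is limited by 3 animals in each group and by low counts: 57 of 67 members had under 10 counts in AEW mouse 2, and 15 KAPs could not be tested under the filter.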
